A study of Mus musculus with 3 samples.

Results

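CELF1 CLIP clusters are short stretches of RNA on which reads crosslinked to the RNA-binding protein CELF1 piled up, and the widest of them, those of 100 nt or more, are described here. They were chosen by their width alone, and 5928 of 72222 clusters in 3 libraries reached it. Heart gave 3637 wide clusters among 42263, which is 8.61% (95% exact interval 8.34 to 8.88), muscle gave 2228 among 24844, which is 8.97% (8.62 to 9.33), and C2C12 myoblasts gave 63 among 5115, which is 1.23% (0.948 to 1.57). Because the width chose the clusters, these shares are a description and no test of width was made. The tissue libraries were made from heart ventricle and from muscle of C57/BL6 mice aged 16 weeks, and C2C12 is an established line of mouse myoblasts, the dividing precursors of muscle fibres. In each source endogenous CELF1 was fixed to RNA by UV light at 254 nm and pulled down with the monoclonal antibody 3B1. There was 1 library for each source, and the sources used here do not say how many mice were pooled.

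CELF1 is a member of the CUGBP and ELAV-like family. It binds GU-rich RNA with UGU at its core, and it steers alternative splicing when bound in exons or in introns near them. It promotes shortening of the poly(A) tail and decay of many mRNAs when bound in their 3′ untranslated regions (3′ UTRs). In heart and skeletal muscle CELF proteins are abundant before birth and fall afterwards, and their excess is a feature of myotonic dystrophy.

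Wide clusters were compared with the narrower ones of the same library by Fisher's exact test (two-sided) with Benjamini-Hochberg adjustment, and odds ratios were compared between libraries by Woolf's test. The tests concern the place of a cluster in its gene and the sharing of its midpoint between libraries. The sharing leaves out the cluster's own width but not that of the cluster in the other library. The width of a partner cluster and the UGU round a midpoint are tied to width and are given as descriptions. Clusters of a gene are not independent and no library has a replicate, so intervals and p-values cover counting error in these libraries only. The files give no number of reads for a cluster. How strongly each gene is expressed or how deeply each cluster was read was therefore not tested as a source of width.

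Wide clusters of all 3 libraries met at a few sites. Of 4538 places with a wide cluster in any library, 25 joined wide clusters of all 3, and at 24 of them the 3 clusters had at least 1 base in common. By their midpoints all clusters at these 24 sites lay in 3′ UTRs, except the myoblast cluster of Chordc1 (a heat shock protein cochaperone), which lay in a coding exon. The 10 with the largest summed width were in Fkbp1a (a prolyl isomerase that also sits on ryanodine receptors), Sqstm1 (the autophagy receptor p62), Nucks1 (a nuclear DNA-binding protein), Ipo5 (a nuclear import receptor), Tmem65 (a membrane protein), Celf1 itself, Tpm2 (beta-tropomyosin of the thin filament), Dynll2 (a dynein light chain), Srsf1 (a splicing factor) and Bgn (biglycan, a matrix proteoglycan). Sequences are shown for 10 of the 24, chosen after their values were seen so that they range from many UGU to none. They are the 30 nt of the common stretch with the most UGU, 5′ to 3′, from the mm9 genome, with UGU in capitals.
Fkbp1a, chr2:151386437-151386466, plus strand: uUGUauagacaccuacccgacugaaUGUGU
Nucks1, chr1:133831935-133831964, plus strand: agUGUgaUGUggguaUGUGUgagugcgUGU
Ipo5, chr14:121346106-121346135, plus strand: uuugagcaagagagcaguagUGUUGUGUGU
Celf1, chr2:90856812-90856841, plus strand: augcuugaacucucaccuuugaccuUGUGU
Dynll2, chr11:87794027-87794056, minus strand: uucuuUGUGUacguuUGUGUuUGUcUGUGU
Srsf1, chr11:87863389-87863418, plus strand: UGUGUgaaaugggaUGUugggggUGUuUGU
Prkar1a, chr11:109529984-109530013, plus strand: cuuuauUGUuuuuUGUuUGUGUGUGUGUGU
Sparc, chr11:55209018-55209047, minus strand: gaUGUGUccccccucccauuacccccuUGU
Calr, chr8:87366286-87366315, minus strand: cauuuuugaaucaacaucuuuuccuucUGU
Tpm2, chr4:43528062-43528091, minus strand: ccuaaccuucuaaaggcuucuaaaggaagg

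These sites range from dense repeats to almost none. In Fkbp1a the 3 clusters were 126 nt wide in heart, 122 nt in muscle and 122 nt in myoblasts and had 113 nt in common. In Ipo5 they were 125, 122 and 104 nt wide, with 104 nt in common, and that stretch held 7 UGU. Prkar1a, which encodes a regulatory subunit of protein kinase A, had 11 UGU in a common stretch of 74 nt. By contrast Calr (calreticulin, a calcium-binding chaperone of the endoplasmic reticulum) had 1 UGU in 88 nt, and the 34 nt common to the 3 clusters of Tpm2 had 0. At Celf1 the clusters were 120, 118 and 112 nt wide, staggered along its 3′ UTR, with 49 nt in common. The common stretches of Sqstm1 (6 nt) and Tmem65 (1 nt) were too short to show.

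Widths ran from 35 nt to 126 nt in heart and muscle and to 123 nt in myoblasts. The median of the wide clusters was 112 nt in heart, 111 nt in muscle and 108 nt in myoblasts, against medians over all clusters of 55, 54 and 38 nt. In heart 97 clusters, and in muscle 44, stood at exactly 126 nt. The sources used here do not say whether long bound regions were split into several clusters, and this was not tested. The width of a cluster is therefore not read as that of a whole bound region. The number of clusters stepped down between 63 nt and 64 nt in every library, with 525 clusters of 64 nt against 955 of 63 nt in heart. No such step lay at the limit of 100 nt, where heart had 178 clusters of 100 nt and 163 of 99 nt, muscle 119 and 85, and myoblasts 5 and 3. Just inside the limit, from 100 to 104 nt, 60.2% of heart clusters lay in 3′ UTRs, against 51.1% just outside it, from 95 to 99 nt. The same shares were 80.6% and 77.5% in muscle and 86.4% and 72.0% in myoblasts.

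**Figure D1:**
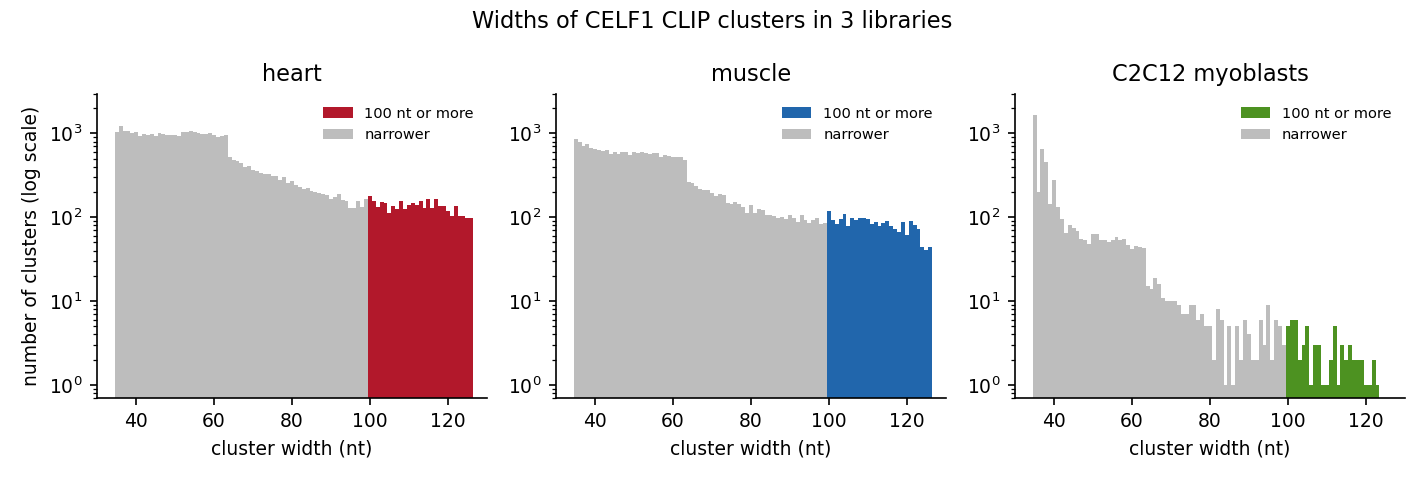
Number of clusters (log axis) at each width in nt, for the heart, muscle and C2C12 myoblast libraries, with clusters of 100 nt or more in colour and narrower ones in grey. All 3 distributions end at or below 126 nt, and the numbers step down between 63 and 64 nt.

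Wide clusters often had close neighbours. In heart 30.2% of the wide clusters lay within 10 nt of another cluster of the same gene, against 7.68% of the narrower ones, in muscle 33.6% against 8.75%, and in myoblasts 19.0% against 1.98%. Joining such neighbours gave 445 stretches of 200 nt or more in heart, 298 in muscle and 3 in myoblasts. The longest stretch of heart, 662 nt with 6 clusters of which 5 were wide, covered chr11:87793779-87794440 in the 3′ UTR of Dynll2. In the same 662 nt muscle had 4 wide clusters of 5, and the only myoblast cluster there was wide. The longest stretch of muscle, 798 nt, lay in the 3′ UTR of Rtn4, which encodes the reticulon Nogo, at chr11:29642115-29642912. It held 5 wide clusters of 7 in muscle and 1 of 6 in heart. Atp2a2, which encodes the calcium pump SERCA2 of the sarcoplasmic reticulum, had the next longest stretch of heart, 628 nt at chr5:122903527-122904154 in its 3′ UTR. There 5 of 5 heart clusters were wide and 0 of 4 muscle clusters. The richest 30 nt of the muscle stretch and of this heart stretch are shown because the stretches differ between the tissues.
Rtn4, chr11:29642200-29642229, plus strand: uUGUaagcugcUGUGUauggaucucauUGU
Atp2a2, chr5:122904122-122904151, minus strand: aaUGUGUauuaccagugggguuuuagcUGU

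In myoblasts the longest stretch was 241 nt in the 3′ UTR of Srsf1. These stretches were chosen after their values were seen.

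Wide clusters fell in 1763 heart genes, which is 25.7% of the 6857 heart genes with any cluster, in 1131 muscle genes (21.2% of 5341) and in 58 myoblast genes (2.11% of 2754). Together they make 2133 genes. Most of these genes had few: 1020 of the heart genes, 649 of the muscle genes and 53 of the myoblast genes had exactly 1 wide cluster. At the other end, 141 heart genes with 5 or more wide clusters held 30.1% of all wide clusters of heart, and 73 such muscle genes held 23.7% of those of muscle. Genes with a wide cluster also had more clusters of any width, with a median of 8.0 against 2.0 in the other genes of heart, 7.0 against 2.0 in muscle and 3.0 against 1.0 in myoblasts. Among genes with at least 5 clusters, 48.4% of those of heart, 47.2% of those of muscle and 8.57% of those of myoblasts had a wide cluster.

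In heart the leading genes included several of calcium handling and the sarcomere gene Ttn, beside genes of other kinds. In Ryr2, Cacna1c and Slc8a1 most wide clusters were intronic. Ryr2, the ryanodine receptor through which the cardiac sarcoplasmic reticulum releases calcium (Entrez 20191, chr13:11645370-12199212, minus strand), had 47 wide clusters among 252, of which 45 lay in introns and 2 in coding exons. It had no cluster in muscle or myoblasts. Cacna1c, the pore-forming subunit of the L-type calcium channel (chr6:118542314-119146249, minus strand), had 30 wide clusters among 223 in heart and 0 among 6 in muscle. Slc8a1, the sodium-calcium exchanger that moves calcium out of the cell, had 18 among 111 in heart, 0 among 14 in muscle and 0 among 3 in myoblasts. These 3 genes are long, and counts of clusters were not corrected for length.

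Atp2a2 (chr5:122903531-122952183, minus strand) had a different layout. It had 23 wide clusters among 59 in heart, and 10 of its 12 heart clusters in the 3′ UTR were wide, as were 7 of 21 in coding exons and 6 of 26 in introns. None of its 15 muscle clusters and 4 myoblast clusters was wide. The widest of them measured 99 nt in muscle and 55 nt in myoblasts. Rcan2, a regulator of the phosphatase calcineurin, also combined 3′ UTR and intron, with 8 of 15 and 7 of 38 heart clusters wide.

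Ttn, which encodes titin, the molecular spring of the sarcomere (Entrez 22138, chr2:76542037-76820604, minus strand), was high in both tissues. It had 37 wide clusters among 184 in heart and 41 among 177 in muscle. Of its clusters in introns 34 of 108 were wide in heart and 35 of 92 in muscle, whereas of those in its coding exons 2 of 69 and 5 of 79 were wide. Zbtb16, a zinc finger transcription factor, had 15 among 92 in heart and 10 among 50 in muscle, again mostly in introns. Ptprm, a receptor tyrosine phosphatase of cell contacts, had 14 among 89 in heart and 0 among 19 in muscle.

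The leading genes of muscle after Ttn mostly carried their wide clusters in the 3′ UTR. Amotl1, an angiomotin family protein of cell junctions (chr9:14346410-14447973, minus strand), had 14 wide clusters among 28 in muscle and 6 among 18 in heart, all in the 3′ UTR. Kif1b, a kinesin that carries cargo along microtubules, had 13 among 45 in muscle and 12 among 45 in heart, all in its 3′ UTR of 7729 nt. Pafah1b1, the dynein regulator LIS1, had 13 among 21 in muscle and 12 among 25 in heart, all in the 3′ UTR. Mbnl1, the muscleblind splicing factor, had 13 among 53 in muscle and 8 among 40 in heart, of which 10 and 5 were in the 3′ UTR. Prkaa2, a catalytic subunit of the AMP-activated kinase, had 11 among 33 in muscle and 5 among 24 in heart. Oxct1, which activates ketone bodies for oxidation, had 10 wide clusters among 16 in muscle and 11 among 25 in heart, and Marchf6, a ubiquitin ligase of the endoplasmic reticulum, had 10 among 26 in muscle and 9 among 31 in heart. The exceptions were Zbtb16 and Ryr1, the ryanodine receptor of skeletal muscle, with 11 wide clusters among 49 in muscle, all of them intronic, and 0 among 2 in heart.

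**Figure D2:**
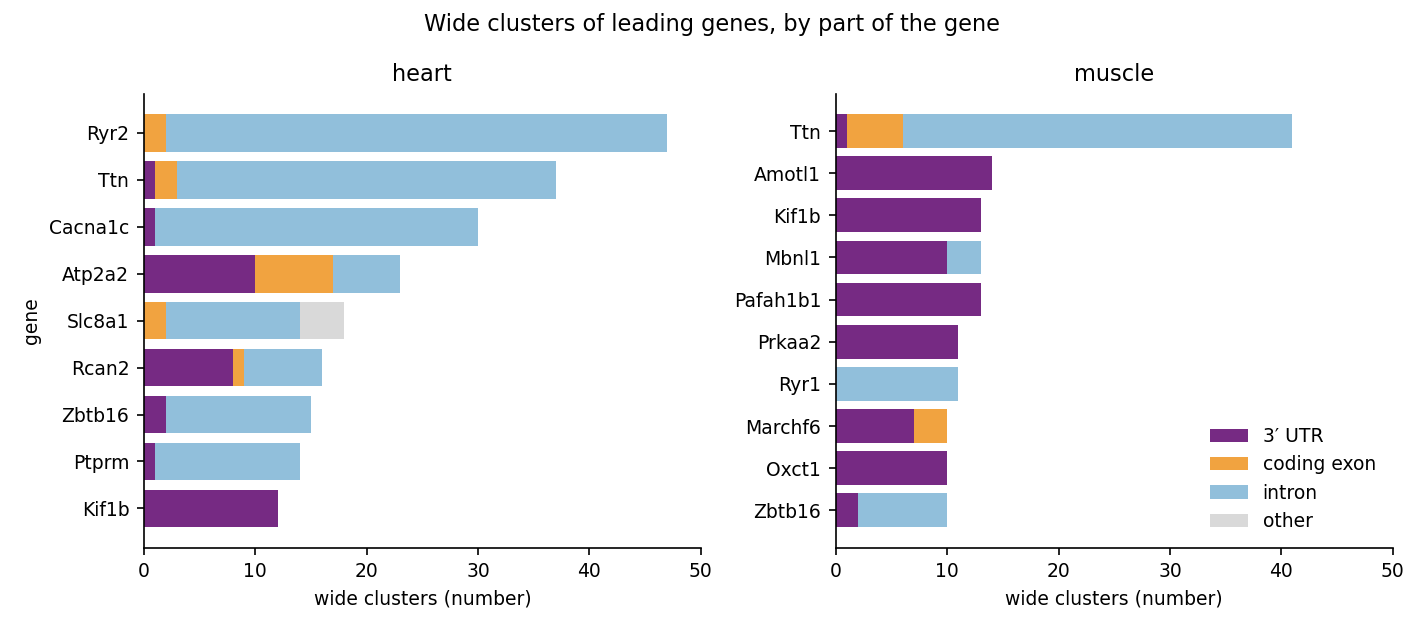
Number of wide clusters in leading genes of heart (left) and of muscle (right), stacked by part of the gene, where other stands for 5′ UTRs and for places outside annotated introns, coding exons and UTRs. Ryr2 (47) and Ttn (37) lead in heart with mostly intronic clusters, and in muscle the genes after Ttn (41) carry mostly 3′ UTR clusters, apart from Ryr1 and Zbtb16.

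Myoblasts had at most 2 wide clusters in a gene. These genes were Actb (cytoplasmic actin), Myadm (a membrane protein with a MARVEL domain), Myh9 (a non-muscle myosin), Hmga2 (a chromatin protein of dividing cells) and Slc29a1 (a nucleoside transporter). Actb had 2 wide among 3 clusters in myoblasts, 0 among 5 in heart and 0 among 2 in muscle. Hmga2 had 2 wide among 26 in myoblasts, both intronic, and its only other cluster was 1 narrow one in heart. The widest myoblast clusters were in the 3′ UTRs of Rangap1 (123 nt), a regulator of nuclear transport, Fbxl14 (122 nt), a ubiquitin ligase subunit, Fkbp1a (122 nt), Cited2 (121 nt), a transcriptional coregulator, and Arf3 (120 nt), a GTPase of vesicle transport. At the midpoints of these clusters heart had clusters of 94, 63, 126, 89 and 115 nt, and muscle had clusters of 99, 58, 122, 123 and 54 nt. Each of the 5 sites was thus also bound in both tissues.

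Of the 1763 heart genes and 1131 muscle genes with a wide cluster, 773 were common, which is 43.8% of those of heart and 68.3% of those of muscle. Of the 58 myoblast genes 45 (77.6%) had a wide cluster in heart and 30 (51.7%) in muscle, and 29 genes had one in all 3 libraries. Among these 29 the most wide clusters were found in Prkar1a (10 in heart, 7 in muscle and 1 in myoblasts), Dynll2 (8, 6 and 1), Reep5 (7, 5 and 1), which shapes the sarcoplasmic reticulum, Celf1 (6, 5 and 1) and the splicing factor Rbfox2 (8, 3 and 1). In Dynll2 nearly every cluster was wide, with 8 of 9 in heart, 6 of 8 in muscle and 1 of 1 in myoblasts. In heart 974 genes, in muscle 357 and in myoblasts 12 had a wide cluster in that library alone, although most were bound elsewhere by narrower clusters: 820 heart genes with a wide cluster had muscle clusters of which none was wide, and 170 had no muscle cluster at all. All 58 myoblast genes had a cluster in heart or muscle. The same shares over all genes with a cluster are not given here, so these overlaps are not read as a trait of genes with wide clusters.

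Genes with wide clusters in heart and no cluster of any width in muscle included Ryr2, Myh6 (alpha myosin heavy chain) with 9 wide clusters, Fhl2 (a LIM domain protein of cardiomyocytes) with 6, Kcnk3 (a potassium channel) with 6 and Nebl (nebulette of the cardiac Z-disc) with 5. In the other direction stood Synm (the intermediate filament protein synemin) with 5 wide clusters, Neb (nebulin), Myl1 (a fast myosin light chain) and Ano5 (a membrane protein mutated in a human muscular dystrophy) with 4 each, and Myoz3 (a calsarcin of fast fibres) with 3. These genes were chosen after their values were seen.

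The labels of the tissues fitted their marker genes, whereas the myoblast markers did not set the myoblast library apart. All 10 heart markers had clusters in heart, with 89 wide ones, and all 10 skeletal muscle markers had clusters in muscle, with 30 wide ones. Of the heart markers 3 were bound in muscle and 3 in myoblasts, and of the skeletal muscle markers 7 were bound in heart, with 2 wide clusters, and 1 in myoblasts. Of the 7 myoblast markers 3 were bound in each library, and their wide clusters numbered 2 in heart, 1 in muscle and 1 (in Ccnd1) in myoblasts. In myoblasts Myf5, Pax7, Des and Cdh15 had no cluster. Endothelial markers were bound in 7 of 7 cases in heart with 10 wide clusters, in 5 of 7 in muscle with 1, and in 0 of 7 in myoblasts. Some wide clusters of the tissues thus lie in genes of other cell types, and their part in the results was not tested.

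Gene lists were read against the share of all bound genes that had a wide cluster, 25.7% in heart, 21.2% in muscle and 2.11% in myoblasts. That share was higher among genes with at least 5 clusters, as given above, and the lists were not matched for number of clusters. Counted by clusters, 8.61% of all clusters were wide in heart, 8.97% in muscle and 1.23% in myoblasts. Heart-enriched genes had a wide cluster in 24 of 25 bound cases in heart (96.0%) and 3 of 11 in muscle (27.3%). Skeletal-muscle-enriched genes had one in 13 of 28 cases in muscle (46.4%) and 7 of 15 in heart (46.7%). In ion channels and calcium handling the counts were 19 of 38 in heart, 13 of 34 in muscle and 0 of 11 in myoblasts, led in muscle by Ryr1 and by Atp2a1, the fast-fibre calcium pump SERCA1, with 9 wide clusters among 18. Sarcomere and Z-disc genes had 16 of 29, 15 of 28 and 0 of 7, with 17.0% of their clusters wide in heart and 15.8% in muscle. For ion channels and calcium handling these shares of clusters were 13.6% and 12.6%. They were 13.2% and 5.05% for heart-enriched genes, and 14.6% and 19.6% for skeletal-muscle-enriched genes. These lists were built from genes known for each tissue, with earlier results of these data known, so their counts are not independent evidence, and the part of their expression in these counts was not tested.

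Lists of regulators held wide clusters in both tissues. RNA-binding and RNA-silencing proteins had one in 27 of 48 bound genes in heart, 19 of 45 in muscle and 3 of 33 in myoblasts. Qk, the splicing factor quaking, had 12 in heart and 3 in muscle, Celf2, the paralogue of Celf1, 11 and 7, Tnrc6b, a partner of Argonaute, 9 and 4, and Msi2, a translational regulator, 8 and 6. Transcription factors had wide clusters in 31 of 46 genes in heart and 22 of 42 in muscle, but 0 of 23 in myoblasts. Sox6, which represses slow-fibre genes, had 7 wide clusters in muscle, 6 of them among its 22 clusters in the 3′ UTR, and in heart 1 wide cluster, with 0 among 8 in the 3′ UTR. Protein kinases and phosphatases had 27 of 46, 23 of 42 and 1 of 29, cytoskeleton and transport genes 25 of 42, 20 of 40 and 3 of 30, and ubiquitin ligases and deubiquitinases 18 of 40, 21 of 39 and 0 of 23. By clusters, transcription factors (9.31% wide in heart, 8.96% in muscle) and cytoskeleton genes (8.96%, 9.52%) stood near the shares over all clusters (8.61%, 8.97%). RNA-binding proteins had 13.7% and 11.6%, kinases and phosphatases 10.0% and 14.7%, and ubiquitin ligases and deubiquitinases 10.4% and 14.6%.

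The remaining lists ranged from oxidative phosphorylation to markers of other cell types. Nuclear-encoded genes of oxidative phosphorylation had wide clusters in 11 of 27 bound genes in heart and 7 of 19 in muscle, among them Sdha, Sdhc and Atp5a1, subunits of succinate dehydrogenase and of ATP synthase. Immediate early and GU-rich-element genes, short-lived mRNAs such as those of Jun and Mcl1, had 6 of 14 and 6 of 15, and 0 of 3 in myoblasts. Myoblast and proliferation genes had 6 of 19 in heart, 3 of 15 in muscle and 3 of 21 in myoblasts. Endothelial genes had 4 of 15 in heart and 1 of 7 in muscle, fibroblast and matrix genes 4 of 12, 1 of 9 and 2 of 11, smooth muscle and nerve genes 2 of 6, 0 of 7 and 1 of 3, and macrophage and immune genes 0 of 3 in heart and 0 of 2 in muscle. Over all bound genes the share was 25.7% in heart, 21.2% in muscle and 2.11% in myoblasts. By clusters, oxidative phosphorylation genes had 17.2% wide in heart and 19.7% in muscle, and immediate early genes 16.3% and 18.5%. Myoblast and proliferation genes had 10.6% and 8.75%, endothelial genes 11.5% and 3.85%, and fibroblast and matrix genes 6.17% and 6.45%. Smooth muscle and nerve genes had 14.3% and 0.00%. The shares over all clusters were 8.61% and 8.97%.

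Wide clusters lay mostly in 3′ UTRs, more often than narrower ones in every library. In heart 64.7% of wide clusters (63.1 to 66.2) were in 3′ UTRs, against 30% of narrower ones (29.6 to 30.5), an odds ratio of 4.27. In muscle the shares were 85% and 46.7% (odds ratio 6.46) and in myoblasts 90.5% and 33.2% (odds ratio 19.1), where the 63 wide clusters leave an interval of 80.4 to 96.4. By Fisher's exact test the adjusted p was too small to be computed in heart, 8.67e-285 in muscle and 7.32e-21 in myoblasts. Introns mirrored this, with 28.9% of wide and 61.2% of narrower clusters in heart, 11.5% and 46.2% in muscle, and 7.94% and 60.9% in myoblasts (largest adjusted p of the 3 by the same exact test 2.06e-18). Coding exons held 3.46% of wide and 5.92% of narrower clusters in heart, 2.06% and 4.78% in muscle, and 1.59% and 3.8% in myoblasts.

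The difference also stood within genes. Among genes that had both wide and narrower clusters, the Mantel-Haenszel odds ratio for lying in the 3′ UTR was 4.97 in heart, 9.43 in muscle and 6.80 in myoblasts. The share in 3′ UTRs rose over nearly the whole range of widths: in heart it was 21.2% from 35 to 44 nt, 39.2% from 65 to 74 nt, 59.4% from 100 to 109 nt and 74.3% from 120 to 126 nt. In muscle the same classes gave 34.5%, 61.8%, 83% and 88.7%. Beside the limit, heart had 51.1% (47.3 to 54.8) from 95 to 99 nt, below the 59.4% (56.8 to 61.9) from 100 to 109 nt, and whether the relation breaks at the limit was not tested. Between the libraries, the odds ratio of heart was 0.660 times that of muscle (95% interval 0.575 to 0.759) and 0.223 times that of myoblasts (0.0959 to 0.521), and that of muscle was 0.338 times that of myoblasts (0.144 to 0.793), and all 3 passed Woolf's test. At a limit of 120 nt none of these 3 differences passed the test.

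**Figure D3:**
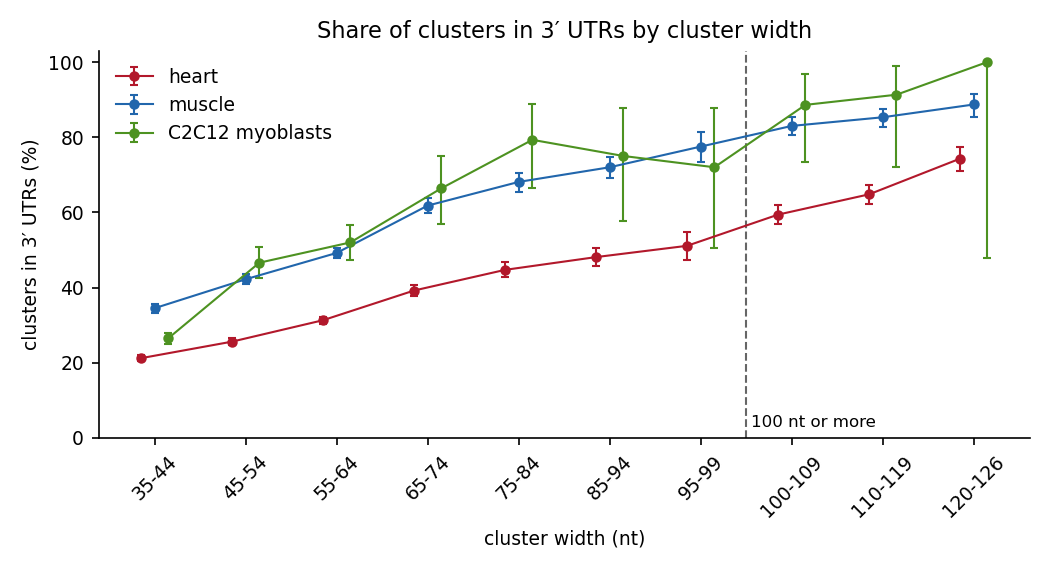
Percentage of clusters that lie in 3′ UTRs, by class of cluster width in nt, for heart, muscle and C2C12 myoblasts; bars are exact 95% intervals of the share, and the dashed line marks 100 nt. In heart the share runs from 21.2% in the narrowest class to 74.3% in the widest, and in muscle from 34.5% to 88.7%.

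Within 3′ UTRs the wide clusters lay slightly nearer to the end of the transcript in the tissues. Of wide 3′ UTR clusters 36.0% in heart and 38.8% in muscle had their midpoint within 500 nt of an annotated transcript end, against 32.4% and 34.8% of narrower ones (Fisher's exact test, adjusted p = 0.00138 in each). In myoblasts the shares were 38.6% and 41.8% (odds ratio 0.875, interval 0.509 to 1.5, adjusted p = 0.683 by the same exact test). At 200 nt, or with clusters of 80 nt or more as wide, neither tissue passed the test. With clusters of 120 nt or more as wide both passed. The shares were then 40.0% against 32.7% in heart and 43.5% against 35.1% in muscle (Fisher's exact test, adjusted p = 0.00133 and 0.00139). Within genes the Mantel-Haenszel odds ratio was 1.21 in heart and 1.29 in muscle. In introns, 15.7% of wide and 12.4% of narrower heart clusters lay within 300 nt of an exon, and 27.2% and 14.8% in muscle, as a description.

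Wide clusters lay more often at places bound in another library. To keep a cluster's own width out of this measure, it was counted as shared when its midpoint, a single base, lay in a cluster of the other library on the same strand. The width of the cluster in the other library still enters, because a wider cluster covers more bases. Its part in these shares was not tested. The midpoint of 60.2% of wide heart clusters lay in a muscle cluster, against 24.8% of narrower ones, and the midpoint of 76.7% of wide muscle clusters lay in a heart cluster, against 46.3%. For wide myoblast clusters the shares were 82.5% in heart against 28.9%, and 73.0% in muscle against 21.2%. Toward the smaller myoblast library they were 7.31% against 2.34% from heart and 7.45% against 3.31% from muscle. All 6 differences passed Fisher's exact test, with adjusted p of at most 3.51e-18. Inside 3′ UTRs alone all 6 held, with 71.5% against 44.3% from heart to muscle. Among intronic clusters alone the 2 between heart and muscle passed (38.9% against 16.0% from heart, 72.0% against 40.4% from muscle), and the 4 that involve myoblasts did not.

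Partners of wide clusters were more often wide themselves. Width chose the clusters in every library, so the shares are a description with no test. Where the midpoint of a wide heart cluster lay in a muscle cluster, that muscle cluster was wide in 48.2% of cases (46.1 to 50.4), against 9.64% for narrower heart clusters. From muscle to heart the shares were 61.8% (59.5 to 64.1) and 15.4%. From myoblasts they were 69.2% against 29.6% in heart and 45.7% against 25% in muscle, and toward myoblasts 12.8% against 2.21% from heart and 12% against 4.14% from muscle. The partners of wide heart clusters in muscle had a median width of 98.0 nt, against 58.0 nt for those of narrower ones, and the partners of wide muscle clusters in heart 107 nt against 65 nt. Kif1b is an example, with clusters of 126 nt in both heart (chr4:148554172-148554297) and muscle (chr4:148554145-148554270).

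**Figure D4:**
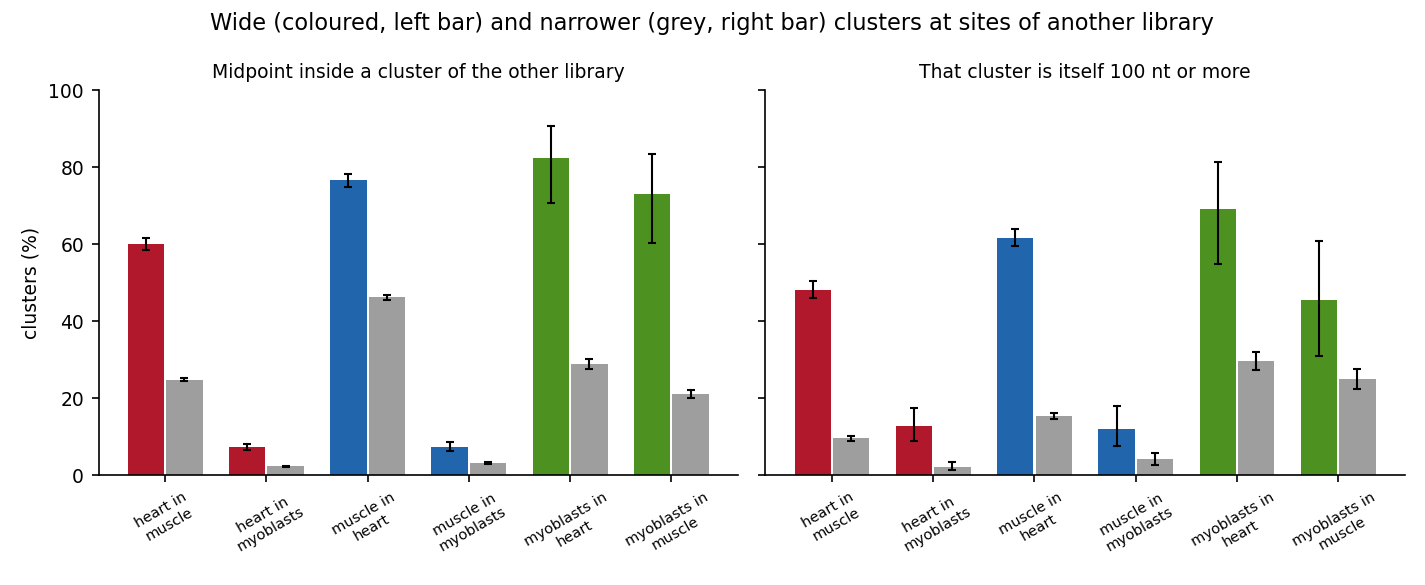
Left, percentage of wide (coloured, left bar) and narrower (grey, right bar) clusters of a library whose midpoint lies in a cluster of another library; right, among those, the percentage whose partner is itself 100 nt or wider. Bars are exact 95% intervals; in all 6 directions the wide clusters are higher on both measures, for instance 60.2% against 24.8% and 48.2% against 9.64% from heart to muscle.

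Overlap by any base was counted for the wide clusters alone. A wide cluster overlaps more by its size alone, so these shares are a description. Of wide myoblast clusters 76.2% overlapped clusters of both tissues and 7.94% overlapped neither. In heart 27.0% of wide clusters, and in muscle 12.9%, overlapped no cluster of the other libraries. The same shares over narrower clusters are not given here, so none of these is read as a trait of wide clusters or of a tissue. Counting only wide clusters, 1047 places were wide in heart and muscle but not in myoblasts, 2383 in heart alone and 1045 in muscle alone. Of the rest, 20 were wide in myoblasts alone, 17 joined heart with myoblasts, and 1 joined muscle with myoblasts.

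The sequences of the widest clusters ranged from runs of alternating U and G to scattered UGU. Clusters of the largest width were many, and they are shown here by the number of UGU they hold, an order chosen after the values were seen. The first 3 are among the 5 of heart with the most, the next 2 are among those of muscle, and the last is from myoblasts.
Dusp18, 3′ UTR, chr11:3800967-3800996, plus strand: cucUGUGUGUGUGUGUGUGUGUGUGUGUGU
Tacc2, intron, chr7:137853856-137853885, plus strand: UGUaUGUGUGUGUUGUcUGUaUGUcUGUGU
Kif1b, 3′ UTR, chr4:148554184-148554213, minus strand: cUGUaUGUGUGUGUGUGUGUGUcUGUcUGU
Decr1, 3′ UTR, chr4:15844655-15844684, minus strand: aagaaUGUagaguuucUGUuUGUuaUGUGU
Neb, intron, chr2:52011592-52011621, minus strand: cUGUauuaacuuUGUGUcUGUaUGUggUGU
Fbxl14, 3′ UTR, chr6:119431722-119431751, plus strand: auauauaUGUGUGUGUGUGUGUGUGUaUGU

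Some of those shown hold a run of alternating U and G. The heart cluster in Dusp18, a phosphatase gene, held 34 UGU in 126 nt with an unbroken run of 27 nt, and the heart cluster of Tacc2 held 29. In others UGU was scattered, such as the muscle clusters of Decr1 (an enzyme of fatty acid oxidation) with 12 and of Neb with 10. Runs of 12 nt or more were found in 8.11% of wide and 9.42% of narrower heart clusters, in 4.62% and 5.70% of those of muscle and in 11.1% and 6.53% of those of myoblasts. Within 3′ UTRs the shares were 4.42% and 2.26% in heart, 3.01% and 1.72% in muscle, and 8.77% and 3.69% in myoblasts. In introns they were 17.6% and 13.9% in heart and 16.3% and 10.2% in muscle. In the tissues wide clusters had the lower share over all parts but the higher share within 3′ UTRs and within introns. Most wide clusters thus lacked such a run. A longer cluster has more room for a run, so these shares are not compared by a test.

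Over all parts of genes, UGU was less dense in wide clusters, with 7.67 UGU per 100 nt in wide and 9.0 in narrower clusters of heart, 6.17 and 8.19 in muscle, and 6.91 and 8.13 in myoblasts. Within 3′ UTRs the densities were close. There the density was 5.74 UGU per 100 nt in wide and 5.53 in narrower 3′ UTR clusters of heart, 5.57 and 5.67 in muscle, and 6.59 and 6.54 in myoblasts. In introns it was 12.3 and 11.4 in heart and 11.0 and 11.5 in muscle, higher than in 3′ UTRs for both kinds. Base composition was alike as well, with 35.1% U in wide and 34.6% in narrower 3′ UTR clusters of heart. The median wide cluster held 7.0 UGU in heart and 6.0 in muscle and in myoblasts, against 4.0, 4.0 and 3.0 in narrower ones, as the greater length allows. UUUGU and the AU-rich AUUUA, both counted on the transcribed strand with overlaps, stood at 0.829 and 0.0983 per 100 nt in wide 3′ UTR clusters of heart, against 0.834 and 0.0867 in narrower ones.

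The place of UGU along the clusters is given as a description, because a fixed window covers a larger part of a narrower cluster than of a wide one. In the 31 nt round the midpoint, 85.6% of wide heart clusters held a UGU (84.4 to 86.7) against 93.5% of narrower ones (93.2 to 93.7), and in muscle 84.7% against 94.1%. In myoblasts the shares were 88.9% (78.4 to 95.4) and 80.5% (79.4 to 81.6). Inside 3′ UTRs alone the shares were 82.2% against 88.8% in heart and 83.7% against 90.8% in muscle. The density of UGU along 3′ UTR clusters gives the shape behind these shares. In narrower heart clusters it peaked at 7.84 per 100 nt from 10 to 1 nt before the midpoint and was 3.57 from 20 to 29 nt after it. In wide heart clusters it stayed between 6.62 and 7.15 from 30 nt before to 29 nt after the midpoint, a plateau with no peak. Muscle had the same 2 shapes, with a peak of 8.20 in narrower clusters.

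**Figure D5:**
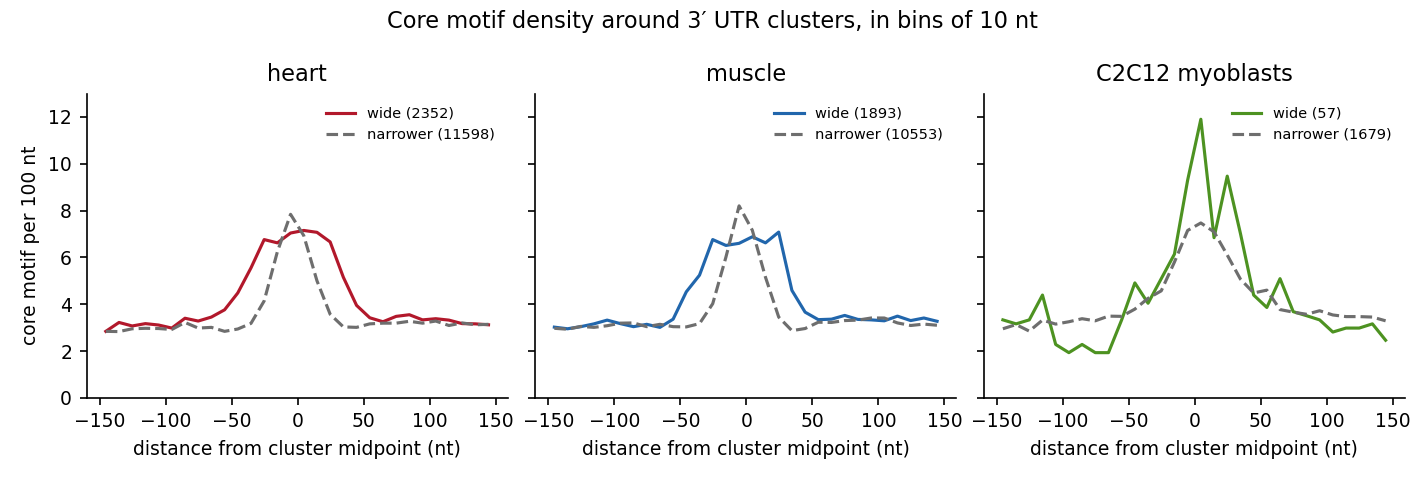
Density of the core motif (UGU, per 100 nt) in bins of 10 nt by distance from the cluster midpoint in nt, for wide (solid, coloured) and narrower (dashed, grey) 3′ UTR clusters, with the number of clusters in brackets. In heart and muscle the wide clusters form a plateau of about 60 nt and the narrower ones a peak of 7.84 and 8.20 per 100 nt; the myoblast line of wide clusters rests on 57 clusters.

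A few wide clusters had no UGU at all, namely 7 in heart (0.192%), 4 in muscle (0.180%) and 0 of 63 in myoblasts, which allows a share of up to 5.69% by the exact 95% interval. In heart they were in Capzb, Klhl7, Lamp2, Mbnl1, Nceh1, Oxct1 and Ryr2, and in muscle in Cpeb3, Myoz3, Nipsnap2 and Oxct1. Oxct1 is in both lists because the same site was wide in both tissues. Its heart cluster covered chr15:4104834-4104955 (122 nt) and its muscle cluster chr15:4104830-4104945 (116 nt) in the 3′ UTR, and the 112 nt they share had 25% U and 25.9% G. The middle 30 nt of this shared stretch are shown, since they are unlike the other sites.
Oxct1, chr15:4104875-4104904, plus strand: gcacagugaaacguaucgucuuucuggcac

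No UGU in this stretch says only that these letters are not in it.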

How the data were processed

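CELF1 CLIP-seq libraries of heart ventricle, muscle and C2C12 myoblasts were used, 1 of each. The authors collapsed identical reads, trimmed adapters and mapped to mm9 with Bowtie and TopHat (versions not given in the sources used here), keeping unique matches, and tested each place against gene expression and pre-mRNA length to call clusters per library. The deposited files list each cluster's start, end, strand and Entrez gene. A deposited score column holds the same value in every row and was not used. No read numbers are listed, so the depth behind a cluster is unknown.

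Width is end minus start, and wide means 100 nt or more. Gene parts were assigned by midpoint, 3′ UTR before coding exon, 5′ UTR and intron, from GENCODE vM1 on NCBIM37, the assembly of mm9. Positions count from 1. Of 8037 gene identifiers 7981 (99.3%) were matched, and 61 wide clusters lay in genes without a matched coding model. Symbols come from a RefSeq table, used for names only. Shares have exact Clopper-Pearson 95% intervals. Wide and narrower clusters were compared by two-sided Fisher's exact tests with Benjamini-Hochberg adjustment, and odds ratios between libraries by Woolf's test with adjustment over 12 tests. UGU was searched as U, G, U on the transcribed strand, overlaps included. Scripts were tested on simulated data with known odds ratios. Alternatives were the width limit, joined or repeated clusters, the rule for gene parts, overlap, the window, and Mantel-Haenszel tests within genes.

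Named genes are the 10 with the most wide clusters per library, the 5 widest clusters, the 10 widest sites common to all libraries, the 10 genes with the most wide clusters among those with one in every library, and up to 3 leading members of each gene list, with choices after seeing values marked in the text. A gene that this rule names is not reported here. The clusters, gene lists and tests were chosen with earlier results of these data known. Tests ran in scipy 1.17.1 and statsmodels 0.14.6, tables in pandas 2.3.3 and numpy 2.4.6, sequences in pysam 0.24.0 and samtools 1.23.1, and plots in matplotlib 3.10.9, under Python 3.11.15.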

Additional observations from a re-analysis of the deposited data

Results flagged for a closer look

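The preference of wide clusters for a part of the gene differed between the libraries. For 3′ UTRs the odds ratio of wide against narrower clusters in heart was 0.660 times that in muscle and 0.223 times that in myoblasts, and that in muscle 0.338 times that in myoblasts. For introns the ratios were 1.69 for heart over muscle, 4.66 for heart over myoblasts and 2.75 for muscle over myoblasts, the last with an adjusted p of 0.0477 by Woolf's test. Only 5 wide clusters of myoblasts were intronic. For UGU in the central window, which covers a larger part of a narrower cluster than of a wide one, the odds ratio of heart was 0.214 times, and that of muscle 0.180 times, that of myoblasts. There is 1 library for each source, so tissue and library cannot be told apart.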

How the results depend on the processing

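Of 209 recomputed values 174 kept their side of the threshold, or, for counts, moved by less than 1.5 times. Odds ratios that changed direction while neither value passed the threshold are among the 174. For example, the odds ratio near transcript ends in myoblasts was 0.875 in the main comparison and 1.15 at 80 nt. The share in 3′ UTRs and in introns, wide against narrower, kept both direction and side in all 3 libraries under every width limit, assignment rule, joining of neighbours, removal of repeated rows and test within genes, except that at 120 nt all 5 wide myoblast clusters lay in 3′ UTRs, were shared with heart and with muscle and held a central UGU, which gives no finite odds ratio. The number of wide clusters was 7356, 4276 and 146 in heart, muscle and myoblasts at 80 nt, and 764, 433 and 5 at 120 nt. Genes with a wide cluster made up 48.4%, 47.2% and 8.57% of genes with at least 5 clusters. Near transcript ends the odds ratios were 1.06 in heart (adjusted p = 0.172) and 1.10 in muscle (0.0849) at 80 nt, and 1.16 and 1.15 within 200 nt of the end, by Fisher's exact test. For UGU in the central window of myoblasts the odds ratio was 2.51 at 80 nt and 3.10 within genes. This measure and the width of a partner are tied to width, so their odds ratios are descriptions. Among intronic clusters alone the odds ratio for a shared midpoint was 1.36 from heart to myoblasts, 0.921 from muscle to myoblasts, 7.52 from myoblasts to heart and 6.27 from myoblasts to muscle, and that for a wide partner was 0.00 between muscle and myoblasts in both directions, where 6 and 2 wide clusters had a partner. From myoblasts a wide partner had odds ratios of 1.49 in heart and 1.92 in muscle at 120 nt, and of 1.70 in muscle inside 3′ UTRs. Within genes it was 1.88 from muscle to myoblasts and 1.94 from myoblasts to muscle. Between libraries at 120 nt the ratios of odds ratios were 0.759, 0.284 and 0.374 for 3′ UTRs and 1.51, 2.96 and 1.96 for introns (heart over muscle, heart over myoblasts, muscle over myoblasts), and 0.152 and 0.125 for UGU (heart and muscle over myoblasts), with 5 myoblast clusters. None of these ratios passed the threshold. At 80 nt the ratio for UGU, heart over muscle, was 1.28. The numbers of clusters also differed between these settings, and the cause of these shifts was not tested. Joined and repeated clusters for the shares, and several of the width limits, were chosen after seeing the data. No paired analysis was possible because each source has 1 library.

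With no replicate and no read numbers, the data cannot separate tissue from library, nor width from read depth. Annotated 3′ UTRs of some leading genes are short, such as 9 nt in Slc8a1 and 121 nt in Ryr1, so their wide clusters in 3′ UTRs can be undercounted. Only reads with unique matches were kept, and how much repeated sequence this removed was not tested.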
